A study of Mus musculus with 6 samples.

Results

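The genes described are those of the mitogen-activated protein kinase (MAP kinase) cascade and of the dual-specificity phosphatases (DUSPs). They are all genes whose symbol is Map2k, Map3k, Map4k, Mapk or Dusp followed by a number, which gives 61 of the 14148 genes in the deposited table. Among them are 5 Map4k, 16 Map3k, 7 Map2k, 12 Mapk and 21 Dusp genes. They were measured by RNA sequencing in microglia, the resident macrophages of the brain, sorted as live CD11b+CD45lo cells. The tissue was hippocampus of male C57BL/6 mice aged 18 months, for which the labels name no transgene and no treatment. BODIPY, a dye of neutral lipid, divided the cells into those with few lipid droplets (LD-low) and those with many (LD-high). Each fraction has 3 libraries of about 10000 cells, and each sample pooled hippocampi of 3 mice. The labels do not say that the pools hold different mice, so p-values reflect how these samples vary, which may be technical only.

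In the cascade, a MAP kinase kinase kinase (MAP3K), often activated by a MAP4K, phosphorylates a MAP kinase kinase (MAP2K), which phosphorylates a MAP kinase (MAPK) on a threonine and a tyrosine. The ERK kinases carry growth factor and survival signals, while JNK and p38 carry stress and cytokine signals, and in macrophages all of them act downstream of pattern recognition receptors. MAP kinase phosphatases (MKPs), a branch of the DUSPs, remove both phosphates, and several are themselves induced by the pathway. Kinase activity is set by phosphorylation, which RNA levels do not measure.

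The activation segments of 6 MAP kinases are shown, with the codons of the phosphorylated motif in capitals. The motif differs between ERK1, JNK and p38 alpha, but is the same in ERK1 and ERK5. The segments are coding strands, 5′ to 3′, from GENCODE vM1 transcripts on NCBIM37 (mm9).
Mapk3 (ERK1): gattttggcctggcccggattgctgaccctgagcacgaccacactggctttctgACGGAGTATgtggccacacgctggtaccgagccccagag
Mapk7 (ERK5): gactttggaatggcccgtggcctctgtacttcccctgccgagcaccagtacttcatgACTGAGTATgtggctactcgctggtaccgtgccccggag
Mapk8 (JNK1): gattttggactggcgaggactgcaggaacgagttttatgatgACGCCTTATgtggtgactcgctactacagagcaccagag
Mapk9 (JNK2): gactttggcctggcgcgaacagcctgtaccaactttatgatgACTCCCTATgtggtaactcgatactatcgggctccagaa
Mapk14 (p38 alpha): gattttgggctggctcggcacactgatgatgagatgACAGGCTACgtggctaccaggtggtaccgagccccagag
Mapk6 (ERK3): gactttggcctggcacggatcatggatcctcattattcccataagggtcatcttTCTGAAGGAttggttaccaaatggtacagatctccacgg
The capitals encode threonine, glutamate and tyrosine in Mapk3 and Mapk7, with proline in the middle in Mapk8 and Mapk9 and glycine in Mapk14. In Mapk6, an atypical MAP kinase, they encode serine, glutamate and glycine, with no tyrosine. The segments of Mapk8 and Mapk9 share 61 of 81 bases.

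The libraries held 15895576 to 38489448 reads in genes. The 10 microglia markers summed to 1485974 to 1737095 normalized counts (reads divided by the size factor of the library) in LD-low and 1431968 to 1663799 in LD-high libraries. Of 9 neutrophil markers, 7 were in the table; they summed to 1222, 1589 and 4563 in LD-low replicates 1, 2 and 3, and had 0 reads in every LD-high library, and all 6 that were tested fell. The 10 choroid plexus markers summed to 954, 369 and 1828 in LD-low and 5658, 1728 and 5555 in LD-high libraries. Sums also lay higher in every LD-high library for oligodendrocytes (4641 to 4894 against 5452 to 6013), astrocytes (6466 to 7795 against 7949 to 8855, nearly all Slc1a3) and neurons (37.9 to 67.8 against 73.0 to 96.3). Mog, Gfap and Aqp4, defining markers of these glia, were near 0 and lay the other way. Mog had 10.5, 7.58 and 9.29 in LD-low and 1.49, 0 and 6.68 in LD-high libraries, Gfap 9.82, 19.5 and 13.9 against 9.68, 1.12 and 5.01, and Aqp4 had no reads in LD-high libraries. Sums overlapped for border-associated macrophages and monocytes (381 to 704 against 294 to 513) and lymphocytes (678 to 733 against 655 to 764). Of the macrophage and monocyte genes, 8 were tested and none was called, with a median log2 change of -0.52. Folr2 (77.2, 40.1 and 43.7 against 33.5, 22.4 and 16.7) and Cbr2 (25.98 to 40.7 against 5.01 to 19.04) lay lower without overlap. So did the untested Ly6c2, with no reads in LD-high libraries, while Mrc1, Cd163, Lyve1, F13a1, Pf4, Ms4a7 and Ccr2 overlapped. The sums of endothelial and mural cells overlapped too (1082 to 1495 against 1274 to 1644, nearly all Pecam1). The endothelial gene Flt1 had 19.6, 21.6 and 24.1 against 2.98, 5.60 and 0 without overlap (adjusted p 0.0563 by limma, 0.0395 by edgeR and 0.0165 by DESeq2). In such sorted bulk samples, fewer cells of a type and less RNA per cell cannot be told apart.

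Of the 61 genes, 52 passed the filter on low values and were tested. Between LD-high and LD-low microglia, 1 fell, the kinase gene Map4k4, and 1 rose, the phosphatase-family gene Dusp27, by limma with Benjamini-Hochberg adjustment. These 2 are 3.85% of the tested members, beside 3.36% of all tested genes (1.53% higher and 1.82% lower in LD-high), so the share called lies near the background. At an unadjusted p under 0.05 there were 10 members (19.2%), 4 higher and 6 lower, beside 19.8% of all tested genes (9.68% higher and 10.1% lower). Values of LD-low and LD-high libraries did not overlap for 14 members (26.9%), 7 higher and 7 lower, beside 24.3% of all tested genes (12.7% higher and 11.7% lower). The median log2 change, LD-high minus LD-low, was -0.01 over the 52 members and -0.01 over the 11624 tested genes.

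**Figure D1:**
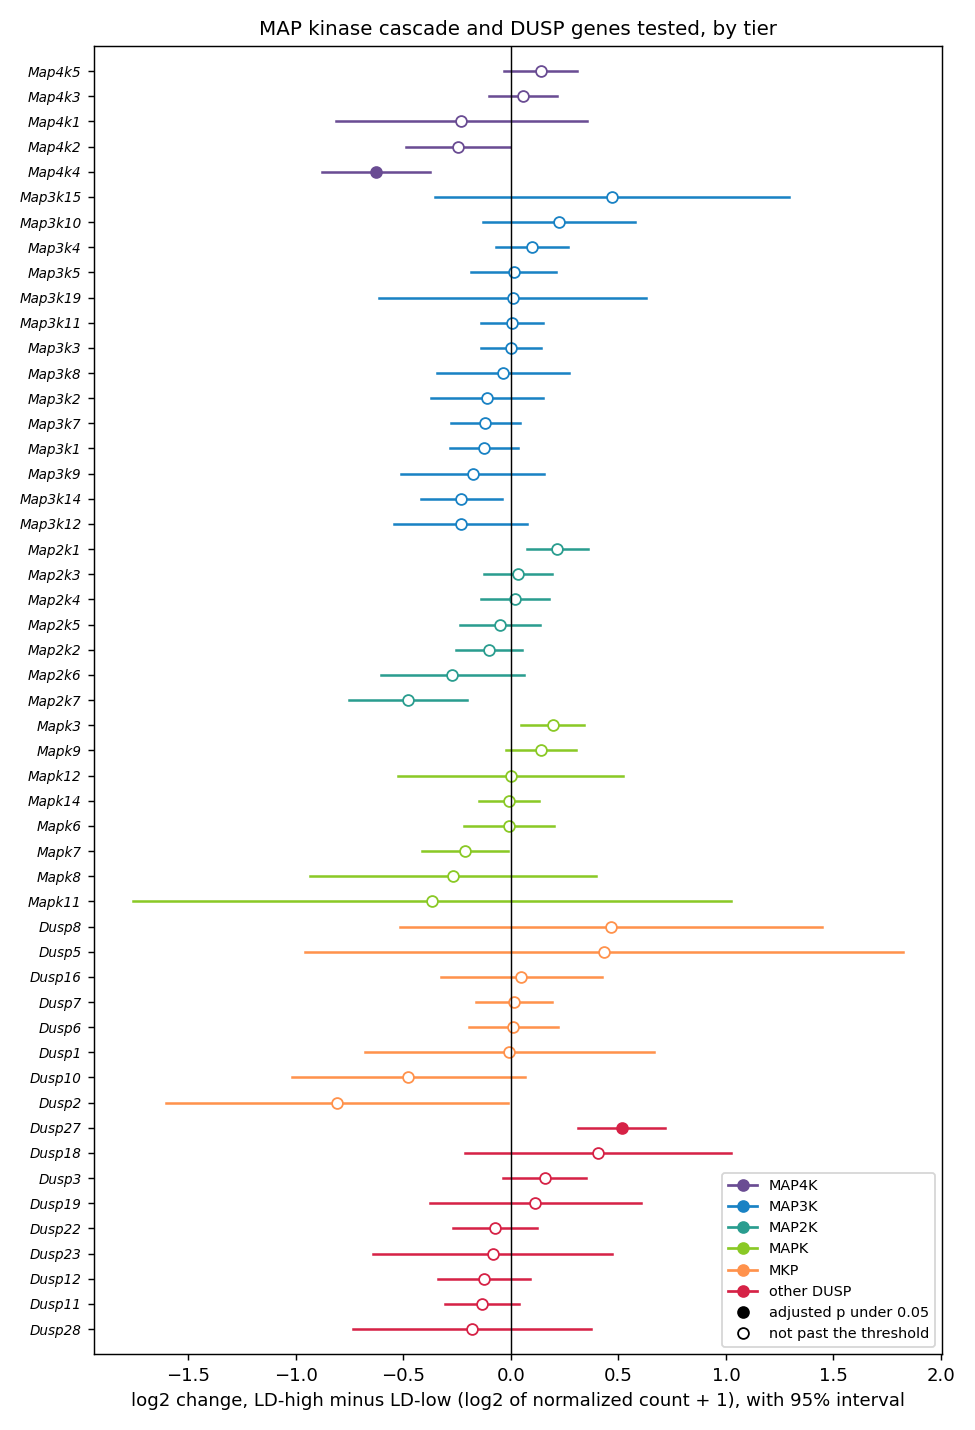
Log2 change from LD-low to LD-high microglia (x axis, log2 of normalized count + 1) of 51 of the 52 tested members, ordered by tier, with 95% intervals from limma as lines and filled points for an adjusted p under 0.05. Only Map4k4 (-0.63) and Dusp27 (0.52) are filled.

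The MAP4K tier, at the entry of the cascade, held the gene that fell, 1 of 5 tested (20%), beside 3.36% of all tested genes. An unadjusted p under 0.05 in limma was reached by 2 (40%), both lower, beside 19.8% of all tested genes. Groups did not overlap for 3 (60%), 1 higher and 2 lower, beside 24.3% of all tested genes. Map4k4 (HGK), a kinase upstream of JNK, lies at chromosome 1, 39957758 to 40083155 (mm9). It had 899, 992 and 1248 normalized counts in LD-low replicates 1, 2 and 3, and 724, 656 and 636 in LD-high replicates 1, 2 and 3. All LD-high libraries lay below all LD-low libraries, and LD-low replicate 3 was the highest. The means were 1046 ± 181 and 672 ± 46.0 (SD, n = 3 each). The fitted log2 change was -0.63 ± 0.12 (SE), with 95% limits of -0.88 and -0.38 (adjusted p 0.0145 by limma). The call was lost without LD-low replicate 3 (-0.49, adjusted p 0.0728), without LD-high replicate 3 (-0.59, adjusted p 0.0593) and in limma without a mean-variance trend (adjusted p 0.183). The neutrophil sums rank the LD-low libraries in the same order as Map4k4 and are 0 in LD-high libraries, and their part in the result was not tested.

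The other 4 MAP4K genes did not pass. Here and below, the value with ± in parentheses after the counts of a gene is its log2 change and SE, with the adjusted p by limma. Map4k2 had 834, 778 and 1064 normalized counts in LD-low and 725, 757 and 753 in LD-high libraries. Its groups did not overlap, with LD-low replicate 3 again the highest, and the log2 change was -0.25 ± 0.11 (adjusted p 0.241). Map4k5 (KHS) had 1274, 1248 and 1273 normalized counts in LD-low and 1392, 1328 and 1463 in LD-high libraries, without overlap in the other direction (0.14 ± 0.08, adjusted p 0.348). Map4k3 (GLK), with the highest level per kilobase of exon in the tier, had 1657, 1630.4 and 1736 normalized counts in LD-low and 1726, 1699 and 1797 in LD-high libraries. Its groups overlapped (0.06 ± 0.07, adjusted p 0.729). Map4k1 (HPK1), known from blood cells, was the lowest of the tier at 55.9 to 89.8 normalized counts.

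None of the 14 tested MAP3K genes passed in limma, where 1 (7.14%) had an unadjusted p under 0.05, beside 19.8% of all tested genes. Of them 7 lay above and 7 below 0, with a median log2 change of -0.02. The most abundant per kilobase of exon were Map3k3 (MEKK3), at 1664 normalized counts per kb, and Map3k11 (MLK3), at 1258. Map3k3 had 6908, 6445 and 6709 normalized counts in LD-low and 7069, 6518 and 6507 in LD-high libraries. The groups overlapped, and the 95% limits of its log2 change were -0.14 and 0.14. Map3k11 had 4886, 4933 and 4511 normalized counts in LD-low and 4774, 4609 and 4977 in LD-high libraries, also with overlap and with limits of -0.14 and 0.15.

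Among the MAP3K genes of inflammatory signalling, Map3k14 (NIK, the kinase of the non-canonical NF-kB pathway) had the smallest p of the tier. It had 1602, 1743 and 1811 normalized counts in LD-low and 1469.5, 1330.4 and 1605 in LD-high libraries. The groups overlapped at LD-low replicate 1 and LD-high replicate 3, and the log2 change was -0.23 ± 0.09 (adjusted p 0.166). Map3k7 (TAK1), which relays Toll-like and interleukin-1 receptor signals, had 1684, 1794 and 1821 normalized counts in LD-low and 1648, 1600.3 and 1633 in LD-high libraries. Its groups did not overlap (-0.12 ± 0.07, adjusted p 0.400). The same was so of Map3k1 (MEKK1), with 1930.3, 2041 and 1894 against 1785, 1858 and 1736 normalized counts (-0.12 ± 0.07, adjusted p 0.371).

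Map3k8 (TPL2), which links Toll-like receptors to ERK, had 474, 681 and 621 normalized counts in LD-low and 483, 585 and 658 in LD-high libraries. Replicate 1 was the lowest of each group, and the groups overlapped (-0.04 ± 0.14, adjusted p 0.923). Map3k5 (ASK1), a kinase activated by oxidants, had 1871, 1529.7 and 1543 normalized counts in LD-low and 1729, 1526 and 1723 in LD-high libraries, again with overlap (0.01 ± 0.09, adjusted p 0.954). The other 7 tested MAP3K genes had log2 changes from -0.23 (Map3k12) to 0.47 (Map3k15), all with overlapping groups. Exons of Map3k12 overlap those of Pcbp2 on the opposite strand, and exons of Map3k15 those of Pdha1, so reads of these 2 genes are uncertain where counting does not use strand.

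In the MAP2K tier no gene passed in limma. There an unadjusted p under 0.05 was reached by 2 of 7 (28.6%), 1 in each direction, beside 19.8% of all tested genes. Map2k7 (MKK7), which activates JNK, lies at chromosome 8, 4238740 to 4251423. It had 726, 879 and 879 normalized counts in LD-low and 481, 652 and 661 in LD-high libraries. All LD-high libraries lay below all LD-low libraries, and replicate 1 was the lowest of each group. The log2 change was -0.48 ± 0.13, with 95% limits of -0.75 and -0.20. Its adjusted p was 0.0569 by limma, 0.061 by edgeR and 0.0169 by DESeq2. These values are for Map2k7. A gene model on the same strand, Gm14378, shares exon bases with it, so its reads are uncertain. Map2k4 (MKK4), the other JNK activator, had 2252, 2249.6 and 2033 normalized counts in LD-low and 2182, 2146 and 2294 in LD-high libraries, with overlap (0.02 ± 0.07, adjusted p 0.919).

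Map2k1 (MEK1), which activates the ERK kinases, lies at chromosome 9, 64033577 to 64101438. It had 6889.8, 6371 and 6591 normalized counts in LD-low and 8142, 7469.6 and 7469.9 in LD-high libraries. Every LD-high library was above every LD-low library. The log2 change was 0.22 ± 0.07, with 95% limits of 0.08 and 0.36. Its adjusted p was 0.0861 by limma, 0.0948 by edgeR and 0.0394 by DESeq2. Map2k2 (MEK2), its close relative, had 2688, 2878 and 2787 normalized counts in LD-low and 2608, 2456 and 2719.8 in LD-high libraries, with overlap (-0.10 ± 0.07, adjusted p 0.451).

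Ratios of reads within a library do not depend on its size factor. Reads of Map2k1 per read of Map2k2 were 2.56, 2.21 and 2.37 in LD-low and 3.12, 3.04 and 2.75 in LD-high libraries. Reads of Map2k4 per read of Map2k7 were 3.10, 2.56 and 2.31 in LD-low and 4.53, 3.29 and 3.47 in LD-high libraries. Both ratios were higher in every LD-high library, and no test was made of them, since they were chosen after the values were seen. The ratios of Map2k3 to Map2k6, Mapk9 to Mapk8 and Dusp6 to Dusp7 overlapped between groups.

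The p38 activators did not pass. Map2k3 (MKK3) had 1892, 1769 and 1913 normalized counts in LD-low and 1879.9, 1850.0 and 1974 in LD-high libraries (0.03 ± 0.07, adjusted p 0.856). Map2k6 (MKK6) had 391, 318 and 326 normalized counts in LD-low and 331, 302 and 230.4 in LD-high libraries (-0.27 ± 0.16, adjusted p 0.351). Both overlapped between groups, as did Map2k5 (MEK5), the activator of ERK5, at 933 to 1047 normalized counts.

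**Figure D2:**
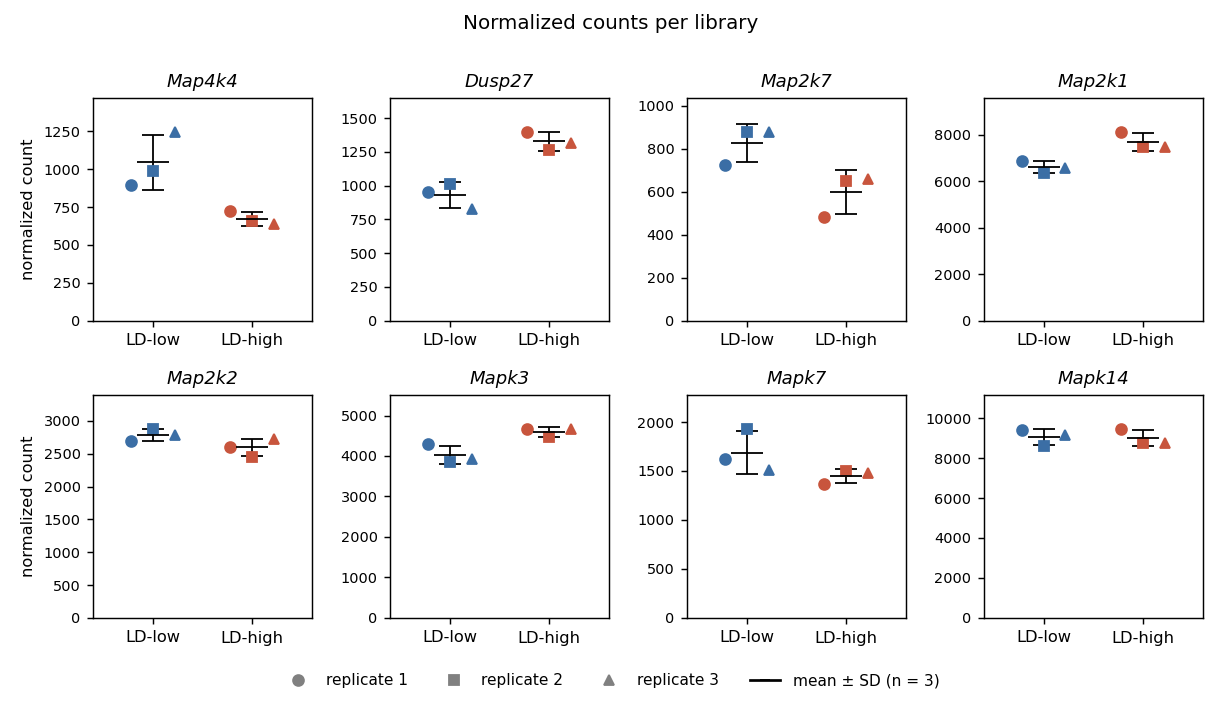
Normalized counts (y axis, from 0) of 8 members in each LD-low (blue) and LD-high (red) library, with the mean ± SD of 3 libraries in black and the replicate number as the shape. Map4k4, Map2k7 and Mapk7 lie lower and Dusp27, Map2k1 and Mapk3 higher in every LD-high library, while Map2k2 and Mapk14 overlap.

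None of the 9 tested MAPK genes passed in limma, where 3 (33.3%) had an unadjusted p under 0.05, beside 19.8% of all tested genes. Mapk3 (ERK1, chromosome 7, 133903115 to 133909333) had 4289, 3860.5 and 3919 normalized counts in LD-low and 4666, 4458 and 4670.0 in LD-high libraries. All LD-high libraries lay above all LD-low libraries, and the log2 change was 0.19 ± 0.07 with 95% limits of 0.05 and 0.34 (adjusted p 0.132). Mapk7 (ERK5) lay the other way without overlap, with 1619, 1930.2 and 1511 normalized counts in LD-low and 1370.5, 1496 and 1481 in LD-high libraries (-0.21 ± 0.09, adjusted p 0.223).

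Among the stress kinases, Mapk14 (p38 alpha) was the most abundant, at 2069 normalized counts per kb of exon. It had 9386, 8611 and 9151 normalized counts in LD-low and 9462, 8768 and 8751 in LD-high libraries. The groups overlapped, and the 95% limits of its log2 change were -0.15 and 0.13. Its relatives Mapk12 and Mapk11 had 43.1 and 5.33 normalized counts per kb.

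Of the JNK genes, Mapk9 (JNK2) held most reads. It had 1834, 1819.8 and 1781 normalized counts in LD-low and 1956, 2141 and 1898 in LD-high libraries, without overlap (0.14 ± 0.08, adjusted p 0.324). Mapk8 (JNK1) had 66.0, 68.2 and 124 normalized counts in LD-low and 47.7, 95.2 and 70.1 in LD-high libraries, with overlap and 95% limits of -0.93 and 0.40. Per kilobase of exon the levels were 281 for Mapk9 and 8.49 for Mapk8. Mapk6 (ERK3), the kinase without the tyrosine in its segment, ran from 742 to 831 in LD-low and from 708 to 811 in LD-high libraries (-0.01 ± 0.10).

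**Figure D3:**
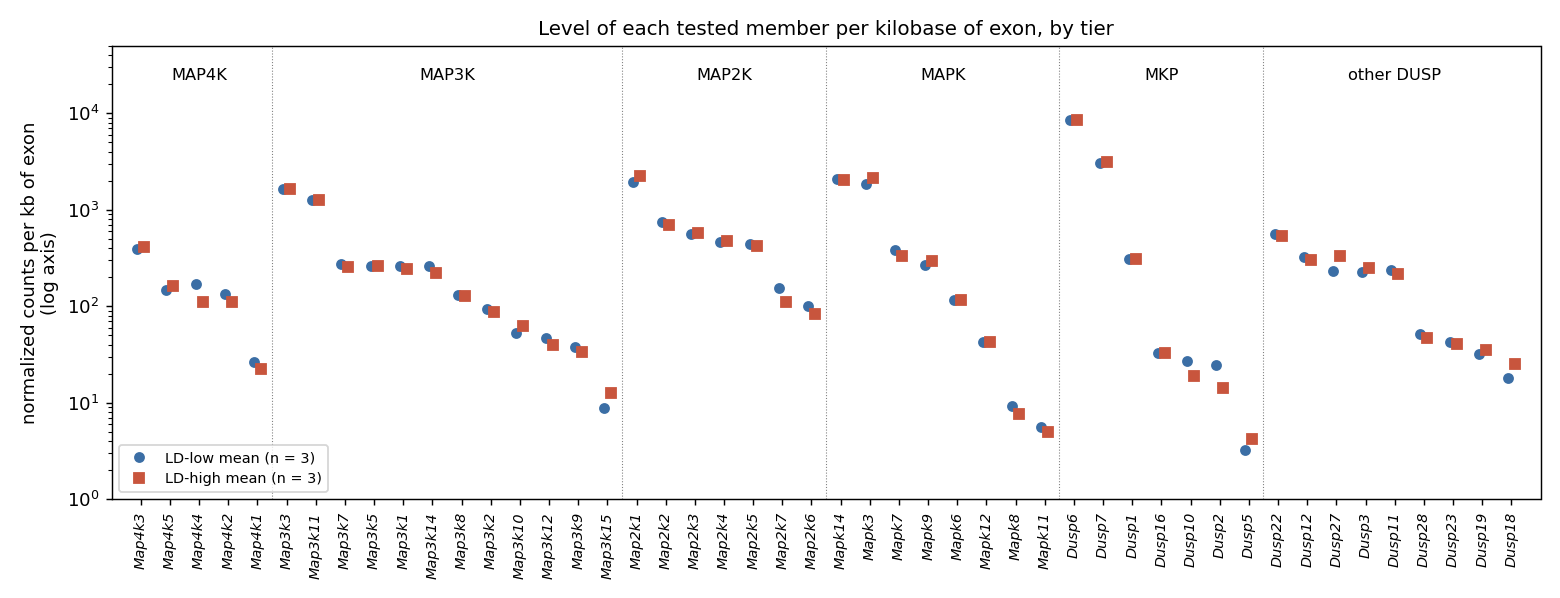
Mean normalized counts per kilobase of annotated exon (y axis, log scale) of tested members with an exon length, in LD-low (blue circles, n = 3) and LD-high (red squares, n = 3) microglia, by tier. Dusp6 (8471 and 8550.0) and Dusp7 (3088 and 3116) lie at the top.

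The MKP tier held the 2 most abundant members. None of its 8 tested genes passed in limma, where 1 (12.5%) had an unadjusted p under 0.05, beside 19.8% of all tested genes. Dusp6 (MKP-3), a cytoplasmic phosphatase of ERK that ERK signalling induces, had 8511 normalized counts per kb of exon, the highest of the 58 members with an exon length. Dusp7, its relative, followed with 3102. Dusp6 had 26689, 21061 and 23308 normalized counts in LD-low and 27197, 21206 and 23315 in LD-high libraries. Replicate 1 was the highest and replicate 2 the lowest of each group, and the 95% limits of the log2 change were -0.19 and 0.22. Dusp7 had 11528, 10093 and 9471 normalized counts in LD-low and 11529, 10002 and 9841 in LD-high libraries, with replicate 1 the highest of each group and limits of -0.16 and 0.19.

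Dusp1 (MKP-1), a nuclear phosphatase of p38 and JNK made as an immediate early gene, varied most between replicates. It had 607, 549 and 1377 normalized counts in LD-low and 605, 557 and 1344 in LD-high libraries. Replicate 3 was the high library of each group, and the groups overlapped (-0.01 ± 0.32, adjusted p 0.993). The fit took no account of the replicate number, so this SE includes the spread between replicates of a group. Fitted with the replicate number, the change had an adjusted p of 0.975 by limma. The SD of Dusp1 within groups was 0.71 on the log2 scale, the highest among the 40 tested members whose mean reached 100 normalized counts. Their median SD was 0.11. The immediate early gene Fos had 176, 163 and 716 normalized counts in LD-low and 128, 124 and 588 in LD-high libraries. Egr1, another, had 566, 645 and 2089.9 normalized counts in LD-low and 474, 476 and 1563 in LD-high libraries. Replicate 3 was the highest of each group for both, which were set beside Dusp1 after their values were seen.

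**Figure D4:**
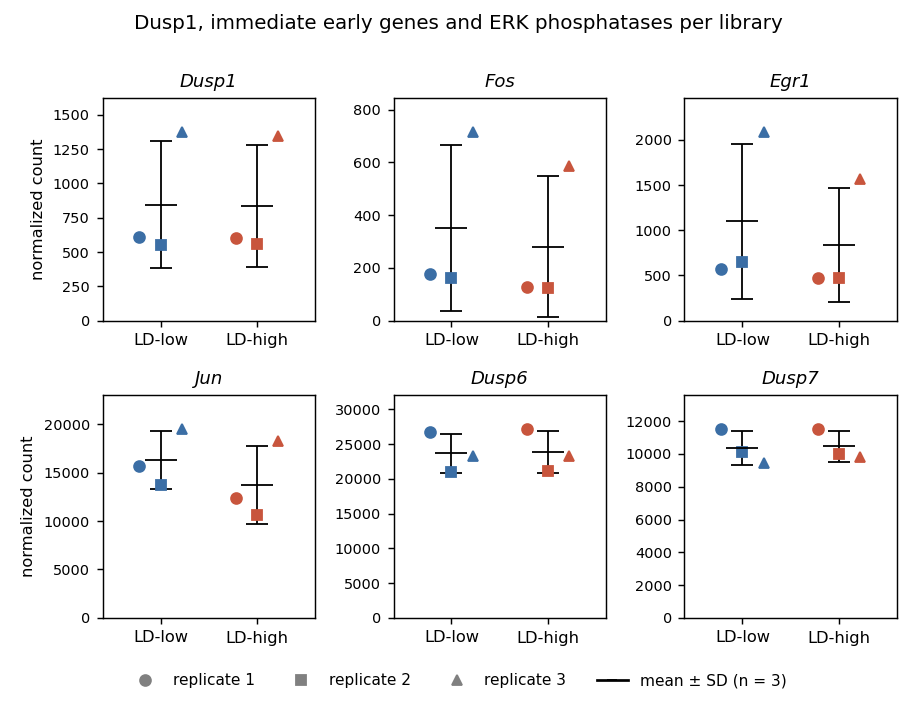
Normalized counts (y axis, from 0) of Dusp1, the immediate early genes Fos, Egr1 and Jun, and the ERK phosphatases Dusp6 and Dusp7 in each library (blue LD-low, red LD-high), with the mean ± SD of 3 libraries and the replicate number as the shape. Replicate 3 is the highest of each group for Dusp1, Fos, Egr1 and Jun, and replicate 1 for Dusp6 and Dusp7.

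The other MKPs were low. Dusp2 (PAC-1), known from activated immune cells, had 57.5, 57.4 and 34.4 normalized counts in LD-low and 33.5, 17.9 and 33.4 in LD-high libraries. The groups did not overlap, though LD-low replicate 3 stood close to 2 LD-high libraries, and the log2 change did not pass (-0.81 ± 0.37, adjusted p 0.242). Dusp10 (MKP-5), which acts on JNK and p38, had 66.7, 92.0 and 86.4 normalized counts in LD-low and 55.9, 67.2 and 51.8 in LD-high libraries, with overlap (-0.48 ± 0.25, adjusted p 0.318). Dusp16 ran from 188 to 307 over the 6 libraries, Dusp8 from 11.9 to 29.8 and Dusp5 from 3.72 to 11.2.

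Dusp27 (chromosome 1, 168028284 to 168058029, minus strand) was the member that rose. Its product, also called STYXL2, is known from muscle and is counted among the phosphatases without catalytic activity. Its coding sequence at the phosphatase signature is shown beside those of 4 active DUSPs because it differs in the codons in capitals, which in the active enzymes encode a histidine and the catalytic cysteine. The strands and annotation are as above.
Dusp27: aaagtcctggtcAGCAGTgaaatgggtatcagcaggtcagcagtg
Dusp6: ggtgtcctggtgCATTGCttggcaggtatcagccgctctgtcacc
Dusp7: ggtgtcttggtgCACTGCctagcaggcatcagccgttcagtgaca
Dusp1: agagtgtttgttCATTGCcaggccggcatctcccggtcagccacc
Dusp3: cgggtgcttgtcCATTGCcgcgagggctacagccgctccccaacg
In Dusp27 both codons encode serine. Of the 21 Dusp genes, 18 had in their longest coding transcript a histidine and a cysteine followed, after 5 residues, by an arginine. The exceptions were Dusp13, Dusp27 and Dusp28, whose other transcripts were not searched.

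Dusp27 had 953, 1013 and 826 normalized counts in LD-low and 1400.2, 1265 and 1317 in LD-high libraries. The groups did not overlap, and LD-low replicate 3 was the lowest library. The means were 931 ± 95.7 and 1328 ± 68.0 (SD, n = 3 each). The fitted log2 change was 0.52 ± 0.09, with 95% limits of 0.31 and 0.72 (adjusted p 0.0128 by limma). The call was lost without LD-low replicate 3 (0.43, adjusted p 0.0690) and in limma without a trend (adjusted p 0.163). Of the choroid plexus markers 3 of 7 tested rose. Their sums were 954, 369 and 1828 in LD-low and 5658, 1728 and 5555 in LD-high libraries, with overlap. The part of these cells in the result was not tested.

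The other 8 tested DUSPs outside the MKPs did not pass. Dusp27 was the 1 of 9 called in this tier (11.1%), beside 3.36% of all tested genes. It was also the only 1 with an unadjusted p under 0.05 in limma (11.1%), beside 19.8% of all tested genes. Groups did not overlap for 2 of the 9 (22.2%), both higher, beside 24.3% of all tested genes. Dusp3 (VHR), which acts on ERK and JNK, had 1059, 1093 and 940.0 normalized counts in LD-low and 1095, 1205 and 1145 in LD-high libraries. The groups were parted narrowly, by LD-low replicate 2 and LD-high replicate 1 (0.16 ± 0.09, adjusted p 0.348). Dusp22 (JKAP), with the highest level per kilobase of the DUSPs outside the MKPs, had 979.5, 958 and 978 normalized counts in LD-low and 966, 972 and 836 in LD-high libraries, with overlap (-0.07 ± 0.09). Dusp12 had 904, 803 and 983 normalized counts in LD-low and 863, 839 and 759.7 in LD-high libraries, also with overlap (-0.13 ± 0.10), and shares exon bases with a gene model on the opposite strand, so its reads are uncertain. Dusp11, a phosphatase of RNA, ran from 1744 to 1879 in LD-low and from 1553 to 1794 in LD-high libraries. Dusp18, Dusp19, Dusp23 and Dusp28 lay in the range of 50.4 to 159 normalized counts.

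The 9 members left untested were Map3k6, Map3k13, Mapk4, Mapk10, Mapk13, Dusp4, Dusp9, Dusp13 and Dusp14. Their highest single value was 25.04 normalized counts, of Map3k13 in LD-high replicate 3. Mapk10 (JNK3), the neuronal form, had no reads in 4 of the 6 libraries. When all 61 members were tested in limma without the filter, none of these 9 passed, while Map4k4 and Dusp27 did. In that limma fit 10 of 61 members had an unadjusted p under 0.05, beside 2514 of 14148 genes. Counting error alone lets a gene at 0 reads in a library reach 3, which equals 2.11 to 5.01 normalized counts by library.

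Genes of the pathway outside the naming rule were taken from a list of 126, of which 109 were tested. Of these, 2 rose, 4 fell and 103 did not pass (5.50% called, beside 3.36% of all tested genes), and the median log2 change was 0.01. At an unadjusted p under 0.05 in limma there were 23 (21.1%), 17 higher and 6 lower. Of all tested genes 19.8% reached it (9.68% higher and 10.1% lower). Groups did not overlap for 25 of the 109 (22.9%), 17 higher and 8 lower, beside 24.3% of all tested genes (12.7% higher and 11.7% lower). Rap1b, a Ras-family GTPase gene, rose from 15710.0, 14608 and 14609.9 normalized counts in LD-low to 17406, 18959.6 and 18010.3 in LD-high libraries (0.28 ± 0.07, adjusted p 0.0364). The docking protein genes Gab1 and Gab2, which link receptors to the phosphatase SHP2, went in opposite directions. Gab1 had 3911, 3727 and 3337 normalized counts in LD-low and 4950.0, 4584 and 4338 in LD-high libraries (0.34 ± 0.08, adjusted p 0.0308). Gab2 had 1822, 1926 and 1874 normalized counts in LD-low and 1683, 1422 and 1264 in LD-high libraries (-0.37 ± 0.10, adjusted p 0.0464).

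Rasgrp4, a Ras exchange factor gene, fell from 405, 517 and 549.9 to 313, 355 and 352 normalized counts (-0.52 ± 0.14, adjusted p 0.0498). Taok1, a kinase gene at the MAP3K level, fell from 1141, 1242 and 1351 to 929, 799.6 and 872 (-0.52 ± 0.10, adjusted p 0.0125). Gadd45g, whose product activates the kinase of Map3k4, fell from 571, 717 and 496 to 398, 419 and 402 (-0.53 ± 0.13, adjusted p 0.0413). In none of these 6 genes did the groups overlap, which follows largely from picking them by p-value in the same libraries. Over all tested genes, 24.3% did not overlap. Of the 6 fits without 1 library, Taok1 was called in 4, Rap1b in 2, Gab1, Gab2 and Rasgrp4 in 1 each and Gadd45g in 0.

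Braf, a kinase gene directly upstream of MEK, did not pass, with 1030.1, 1064 and 1160.1 normalized counts in LD-low and 929.5, 1075 and 1030.2 in LD-high libraries (-0.10 ± 0.09, adjusted p 0.572). Mapkapk2, a main kinase below p38, had 4079, 3750.1 and 3910.5 normalized counts in LD-low and 4235, 3861 and 4202 in LD-high libraries (0.07 ± 0.07, adjusted p 0.638). Jun, the transcription factor gene below JNK, had 15659, 13711 and 19524 normalized counts in LD-low and 12349, 10595 and 18227 in LD-high libraries (-0.27 ± 0.16, adjusted p 0.350), with replicate 3 the highest of each group. None of the 20 tested transcription factor genes, 14 scaffold genes or 10 downstream kinase genes passed in limma. The same was so of 13 feedback inhibitor and phosphatase genes and 6 Ras GTPase-activating protein genes. By class in this order, 1, 2, 3, 3 and 2 had an unadjusted p under 0.05 in limma. These are 5%, 14.3%, 30%, 23.1% and 33.3% of the classes, beside 19.8% of all tested genes. Of 21 small GTPase, exchange and adaptor genes, 2 rose and 2 fell (19%, beside 3.36% of all tested genes). An unadjusted p under 0.05 in limma was reached by 9 of them (42.9%), 7 higher and 2 lower. It was reached by 2 of 12 Raf and other upstream kinase genes (16.7%) and 1 of 13 TAK1 adaptor and TRAF genes (7.69%).

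**Figure D5:**
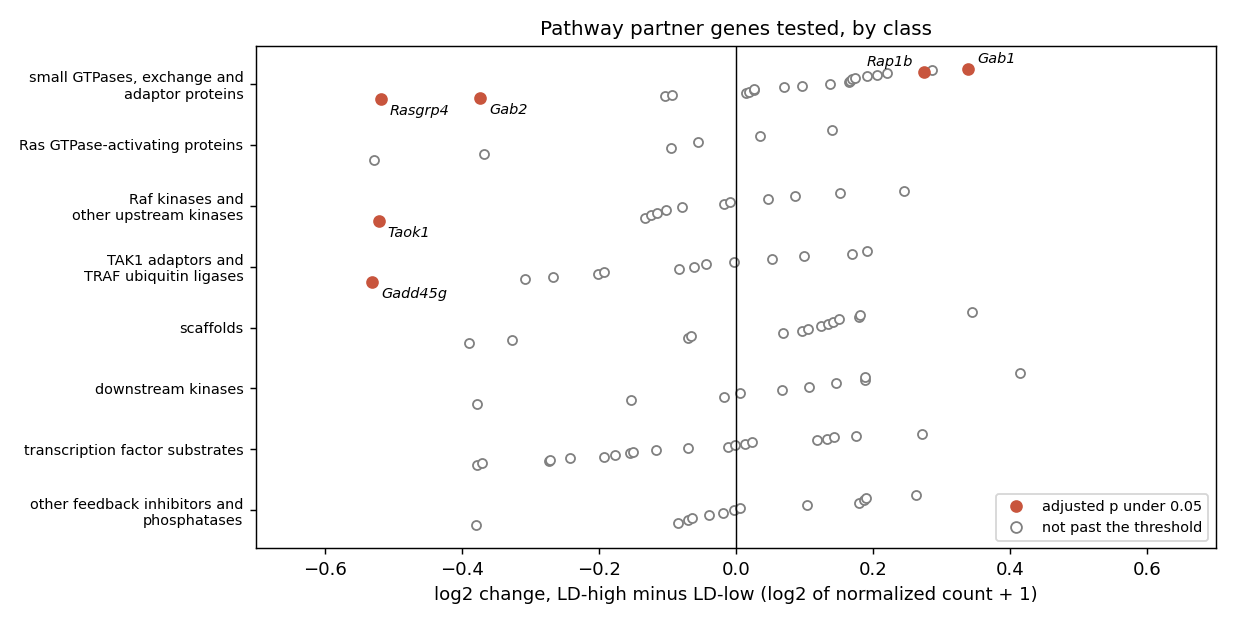
Log2 change from LD-low to LD-high microglia (x axis, log2 of normalized count + 1) of the 109 tested pathway partner genes, 1 point each, by class (y axis), with filled points for an adjusted p under 0.05 in limma. Rap1b and Gab1 are filled above 0, and Gab2, Rasgrp4, Taok1 and Gadd45g below 0.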

How the data were processed

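The deposited table gives a normalized signal per gene and library. Per the submitters' processing notes, FastQC 0.11.4, STAR 2.5.1b, mm9 and DESeq2 were used, and the sources used here state no annotation or strand setting. Each value was a whole multiple of its library's step (100% within 0.01), so reads were recovered by dividing by it. Of the 14148 rows, 22 have a date for a symbol.

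Genes that reached 10 in 3 or more libraries were tested with limma 3.58.1 (R 4.3.3) with a mean-variance trend on log2(value + 1), which understates changes of low genes. P-values were adjusted by Benjamini-Hochberg over 11624 genes, with a threshold of 0.05. The fit was tested on simulated data. Positions, exon lengths (58 of 61 members) and sequences come from GENCODE vM1. Exons of Map4k2, Map4k5, Mapk7 and Dusp28 also share bases with genes on the opposite strand. Those of Dusp19 share bases with Nup35 on the same strand, and those of Map3k14 with the gene model 1700028N14Rik on the same strand. Reads of these stretches are uncertain too. Alternatives were pseudocounts, filters, scalings, no trend, each library left out, a replicate block, edgeR 4.0.16 and DESeq2 1.42.0 on the reads.

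Values in every library are given for members past the threshold, the 2 per tier with the smallest p, the 2 per tier with the highest level per kilobase, and the best known node of each branch. In addition, 1 member and 1 pathway gene are counted in totals but not reported here. Fos, Egr1 and the read ratios were added after their values were seen. The members, the pathway list and the 9 marker lists were chosen with earlier results of these data known.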

Additional observations from a re-analysis of the deposited data

How the results depend on the processing

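The counts and the log2 changes of the 32 members picked by the rule for named genes were recomputed under 17 alternatives, except that Dusp2 does not pass the filter of 50. Map4k4 and Dusp27 were both called under pseudocounts of 0.5 and 5, no filter, a filter of 50, TMM factors, equal totals, quantile normalization, the replicate block, edgeR and DESeq2. Of the 30 others, 26 passed under none. With the replicate number as a replicate block, 4 members were higher and 2 lower, with 1090 genes called in all and 9 partners higher and 9 lower. Among the members the block added were Map2k1 (adjusted p 0.0176), Mapk3 (0.0456) and Map2k7 (0.00516). Deviations from group means of same-numbered libraries correlated by 0.161, 0.132 and 0.064 across 11624 genes, so the numbers are not shown to pair samples, although every library correlated best with its own number, a hint from the data. DESeq2 called 2 members higher and 2 lower (adding Map2k1 and Map2k7), 729 genes in all and 7 partners higher. In limma without a trend, 0 members were called higher and 0 lower, 0 partners higher and 0 lower, and 15 genes in all. An unadjusted p under 0.05 was reached there by 8 of 52 members, 16 of 109 partners and 1895 of 11624 genes. Quantile normalization left 240 genes, with 1 partner higher and 1 lower. With 1 library left out, members called ran from 0 to 1 higher and 0 to 2 lower, all genes from 52 to 421, and partners from 0 to 3 higher and 0 to 2 lower. The second lower member was Map2k7, without LD-low replicate 1 (adjusted p 0.0407). The counts of 0 for members came without LD-low replicate 3 and, for lower ones, also without LD-high replicate 3. Without LD-low replicate 3, 8 of 52 tested members had an unadjusted p under 0.05 in limma, beside 1723 of 11624 genes. Leaving out LD-low replicate 3 left 52 genes called in all, and leaving out LD-low replicate 2 left 82. Of the LD-high libraries, dropping replicate 1 left 231, replicate 2 left 201 and replicate 3 left 90. With equal totals 118 genes were higher and 233 lower, beside 178 and 212 in the main result. The median log2 change over all tested genes was -0.048 with equal totals, beside -0.006 in the main result.

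The log2 change turned its sign in 11 of these 32 members, none called, and the cause was not tested. With equal totals they were -0.0393 for Map3k11, -0.0409 for Map3k3, -0.0283 for Map3k5, -0.0094 for Map2k3, -0.0226 for Map2k4, -0.0302 for Dusp6 and -0.0286 for Dusp7. With quantile normalization they were -0.0373 for Map3k11, -0.0678 for Map3k3, -0.0053 for Map3k5, -0.0154 for Map2k4, -0.0167 for Dusp6 and -0.0439 for Dusp7. TMM factors gave -0.0007 for Map3k3, and edgeR gave -0.0011 for Map3k11 and -0.0011 for Map3k3. With 1 library left out the ranges were -0.0373 to 0.0303 for Map3k11, -0.0377 to 0.0255 for Map3k3, -0.0361 to 0.1090 for Map3k5, -0.1884 to 0.0827 for Map3k8, -0.0019 to 0.0547 for Map2k3, -0.0288 to 0.0448 for Map2k4, -0.0461 to 0.0179 for Mapk14, -0.5044 to 0.0260 for Mapk8, -0.4100 to 0.4110 for Dusp1, -0.0843 to 0.1020 for Dusp6 and -0.0581 to 0.0933 for Dusp7.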
